A study of Mus musculus with 6 samples.

Results

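The T-box factors Tbx21 (T-bet) and Eomes, the zinc finger factor Gata3, the Runt factors Runx1, Runx2 and Runx3 with their partner Cbfb, and the lineage factors Zbtb7b (ThPOK) and Hlx were examined in regulatory T (Treg) cells with and without Batf. Members were the probe sets that the platform annotation assigns to 1 of these 9 genes and to no other gene, which gave 16 probe sets of 8 genes among 45037 probe sets and 18193 genes. Runx2 had no such probe set, and its expression was not analysed here. Gene expression was measured on 3 arrays of Batf+/+ and 3 arrays of Batf-/- Treg cells, both taken from mice of the C57BL/6 strain that report Foxp3 through human CD2. CD4+ cells carrying that reporter were sorted from lymph node and spleen and lysed without culture or treatment. The labels give no age or sex, do not say whether animals were pooled or whether each array came from a different mouse, and name no cell type to which the loss of Batf was restricted, so other cells of the Batf-/- mice may have lacked it too. The p-values therefore measure the spread between these arrays, which may be partly technical.

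Lineage factors fix which genes a T cell can switch on. T-bet directs type 1 helper responses and, in Treg cells, the receptor Cxcr3, while its relative Eomes is best known from CD8 T cells and NK cells, and Gata3 directs type 2 responses and is also used by Treg cells. Runx proteins bind DNA as pairs with Cbfb, act together with Foxp3 in Treg cells and, through Runx3, establish the CD8 lineage, which ThPOK opposes in CD4 cells. Batf is an AP-1 factor that pairs with Jun proteins and binds DNA together with Irf4, and the comparison asks how these lineage factors stand in Treg cells that lack it.

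Every level of a probe set is a log2 value counted from its middle Batf+/+ array, which itself reads 0. A level of 1 is thus a doubling over that array. The level of a gene with several probe sets is the mean of theirs, so none of its Batf+/+ arrays need read 0. Such levels compare arrays for 1 probe set or gene and do not tell how abundant a transcript was. Batf itself lay at -3.13, -3.16 and -2.37 on Batf-/- arrays 1, 2 and 3 and between -0.13 and 0.14 on the Batf+/+ arrays, so its probe set followed the labels. The array medians lay between -0.02 and 0.02. Batf-/- array 3 stood apart in markers of myeloid and B cells. All 5 measured myeloid markers had their highest value of the 6 arrays there, with a list median of 0.43 against -0.24 to 0.03 on the other arrays, and so had 3 of 4 measured B cell markers, with a median of 0.34 against -0.07 to 0.07. Part of this was seen on Batf+/+ array 3, where Lyz2 of the myeloid list lay at 0.33, against 0.59 on Batf-/- array 3. The other myeloid markers lay between -0.01 and 0.15 on Batf+/+ array 3. The median of the CD8 T cell markers was also highest on Batf-/- array 3, by a small margin (0.08 against -0.08 to 0.05). That of the NK cell markers was lowest there (-0.08 against -0.05 to 0.09). Tyrobp of the NK list was highest there (0.51), with 0.44 on Batf+/+ array 3. Of 5 Treg markers 0 passed the threshold used here, with log2 differences of -0.12 for Foxp3 and -0.51 for Ikzf2 (limma adjusted p = 0.0526), the lowest. With array weights the Ikzf2 gene passed (adjusted p = 0.014). Since levels are relative, the markers show differences between arrays and not whether a cell type was present.

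**Figure D1:**
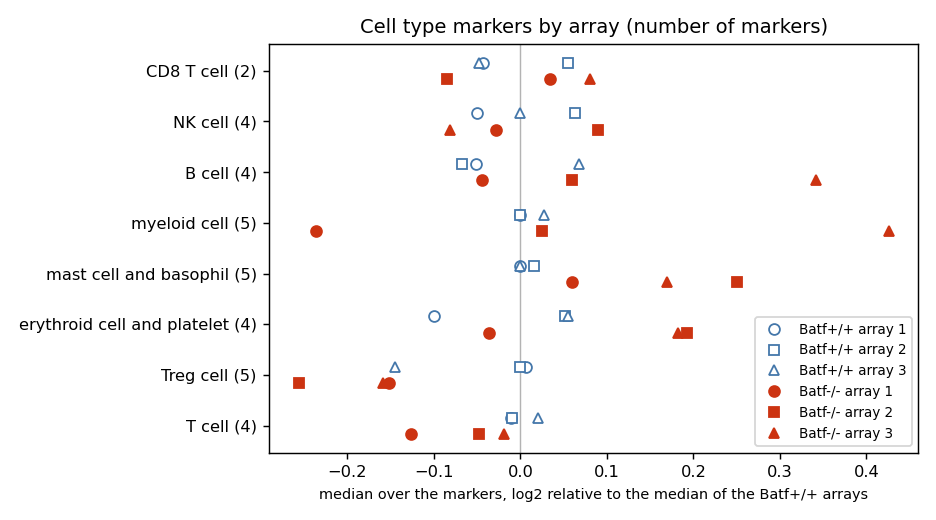
Median level of cell type markers on each array, in log2 units counted from the Batf+/+ median (x axis), for 8 lists (y axis, number of markers measured), with open symbols for Batf+/+ and filled symbols for Batf-/- arrays. The filled triangle, Batf-/- array 3, lies farthest right for the myeloid (0.43) and B cell (0.34) lists.

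None of the 8 measured lineage factors differed between the genotypes past the threshold, a limma adjusted p below 0.05. The number past it was 0 of 16 probe sets, where 0.531% of all 45037 probe sets passed (0.402% lower and 0.129% higher in Batf-/- cells), and 0 of 8 genes, where a gene is the mean of its probe sets and 1.14% of all 18193 genes passed. At an unadjusted p below 0.05 there were 2 of the 16 probe sets, 1 lower (Runx3) and 1 higher (Eomes), where all probe sets gave 6.3% (3.42% lower and 2.88% higher). At the level of genes there were 3 of 8, Gata3 and Runx3 lower and Eomes higher, where all genes gave 7.69% (4.44% lower and 3.25% higher). The 3 arrays of each genotype did not overlap in 3 of the 16 probe sets, 2 lower and 1 higher in Batf-/- cells, where all probe sets gave 11.1% (5.69% lower and 5.45% higher). At the level of genes they did not overlap in 3 of 8, Runx1 and Runx3 lower and Eomes higher, where all genes gave 12% (6.55% lower and 5.5% higher). The differences ran below 0 in 12 probe sets and above 0 in 4, with a median of -0.08 against 0.0066 over all probe sets. The largest was 0.56, for an Eomes probe set. In these bulk samples, fewer cells of a type and less RNA per cell cannot be told apart.

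**Figure D2:**
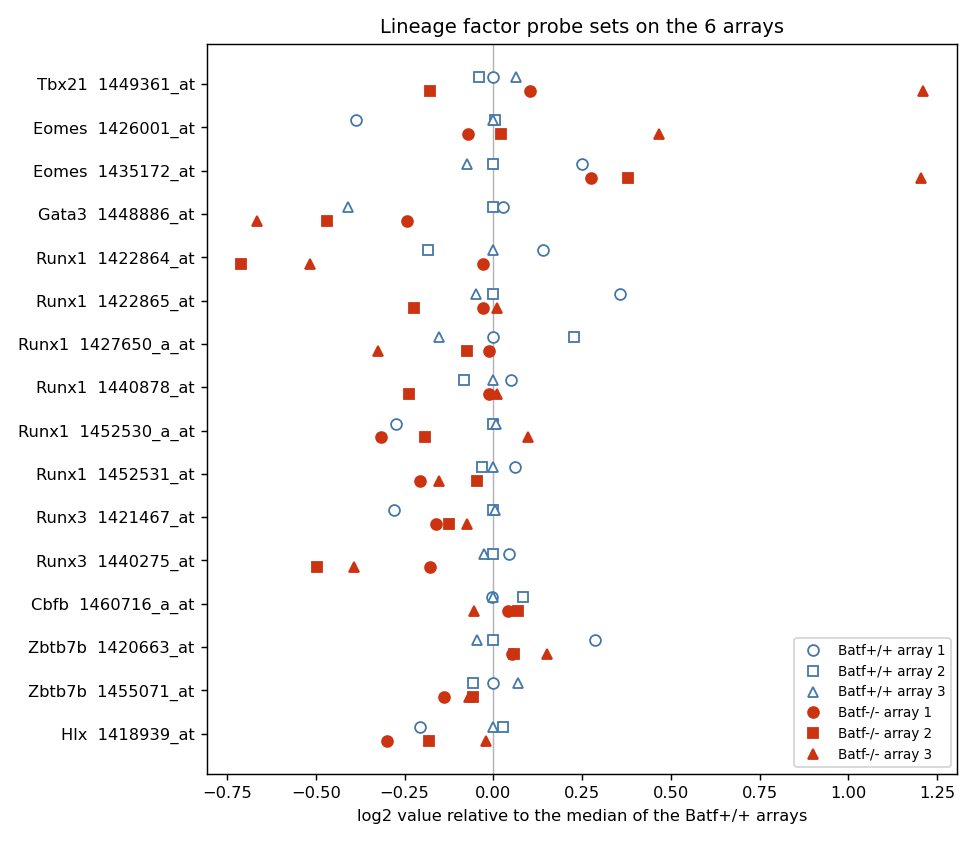
Level of each of the 16 lineage factor probe sets (y axis) on the 6 arrays, in log2 units counted from the Batf+/+ median (x axis), with open symbols for Batf+/+ and filled symbols for Batf-/- arrays. Tbx21 and both Eomes probe sets have their highest value on Batf-/- array 3, at 1.21, 0.47 and 1.21.

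Tbx21 and Eomes had the highest differences of the 8 genes, and both rested largely on a single array. Tbx21 lay at 0.00, -0.04 and 0.06 on Batf+/+ arrays 1, 2 and 3, and at 0.10, -0.18 and 1.21 on Batf-/- arrays 1, 2 and 3. Batf-/- arrays 1 and 2 thus enclosed the Batf+/+ arrays, and array 3 stood 2.15-fold above the highest of the others. The log2 difference was 0.37 ± 0.29 (SE over n = 3 and 3 arrays, adjusted p = 0.956 by limma, 95% interval -0.30 to 1.04). Without Batf-/- array 3 it was -0.045. The SD of Tbx21 among the Batf-/- arrays was 0.73, against 0.05 among the Batf+/+ arrays, and 257 of 45037 probe sets had a larger SD among Batf-/- arrays.

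Eomes was measured by 2 probe sets. The first, 1435172_at, lay at 0.25, 0.00 and -0.07 in Batf+/+ and at 0.27, 0.38 and 1.21 in Batf-/- cells. Its Batf-/- arrays all lay above the Batf+/+ arrays, array 1 by a small margin and array 3 by far. The second, 1426001_at, lay at -0.39, 0.00 and 0.00 in Batf+/+ and at -0.07, 0.02 and 0.47 in Batf-/- cells, and the genotypes overlapped. The log2 differences were 0.56 ± 0.23 (adjusted p = 0.768) and 0.27 ± 0.17 (adjusted p = 0.96) by limma. For the gene, the mean of both, the difference was 0.41 ± 0.17 (SE, limma adjusted p = 0.574, 95% interval 0.03 to 0.80), and 0.19 without Batf-/- array 3. The myeloid and B cell markers were also highest on that array, as given above, and their part in the Tbx21 and Eomes values was not tested.

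On Batf-/- array 3, Tbx21 lay 1.25 above the mean of the other Batf-/- arrays on the log2 scale, and 20 of 45037 probe sets, its own included, stood at least as far above. Named after their values were seen, these were headed by Kcnf1 (3.03), which was also high on Batf+/+ array 3 (3.44). Next came a probe set of immunoglobulin kappa genes (2.94), Scin (2.63) and Lyz1 (2.22). Further down were H2-Aa and H2-Eb1, for MHC class II chains, and 2 probe sets of Cd22, a receptor of B cells. The chemokine receptor Cxcr3, a known target of T-bet, was also among them (1.27). Cxcr3 lay at -1.43, -1.69 and -0.29 on Batf-/- arrays 1, 2 and 3 and between -0.24 and 0.02 on the Batf+/+ arrays. It was thus close to the Batf+/+ arrays on the array where Tbx21 was high. Its log2 difference was -1.06 ± 0.30 (limma adjusted p = 0.249), and -1.49 without that array. Cxcr3 was named for its height on that array, so leaving the array out had to lower its difference, and no p-value is given for that fit. Other targets of T-bet and Eomes went both ways on Batf-/- array 3. Ccl5 lay higher there, at -1.28 against -2.01 and -2.16 on Batf-/- arrays 1 and 2, as did Nkg7, at 1.10 against 0.56 and 0.54. Il18r1, Il18rap and Fasl were lowest on Batf-/- array 3, at -1.54, -1.29 and -1.14. Of the 16 measured targets 9 lay higher there than on both other Batf-/- arrays, as did 41.1% of all genes. A link to Tbx21 was not tested. The 3 genes nearest to Eomes over the 6 arrays, by the root mean square difference of their log2 levels, were Fam160a1 (0.0717), Tmprss13 (0.0771) and 5430427O19Rik (0.101), chosen for that likeness, with levels between 0.71 and 0.75 on Batf-/- array 3.

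The 250 bases before the annotated start of the T-box genes are shown because these genes shared their highest array (RefSeq, GRCm38.p6, strand of the gene). They were searched on both strands for short motifs. The AP-1 motif, which Batf pairs bind, was taken as TGANTCA. The RUNX motif, bound by the Runt factors together with Cbfb, was taken as TGTGGT. The GATA motif of Gata3 and its relatives was taken as AGATAA. The T-box motif of Tbx21 and Eomes was taken as GGTGTGA. Composites of AP-1 with an IRF element, the joint sites of Batf and Irf4, were searched as well. The composites are TTTC, 4 bases of any kind and the AP-1 letters, or GAAA directly followed by the AP-1 letters, so each match would also count as AP-1. Capitals would mark a match, and there was none. Tbx21 spans chr11:97115332-97115581 on the minus strand (60.8% G and C) and Eomes chr9:118477939-118478188 on the plus strand (46.4%).
Tbx21: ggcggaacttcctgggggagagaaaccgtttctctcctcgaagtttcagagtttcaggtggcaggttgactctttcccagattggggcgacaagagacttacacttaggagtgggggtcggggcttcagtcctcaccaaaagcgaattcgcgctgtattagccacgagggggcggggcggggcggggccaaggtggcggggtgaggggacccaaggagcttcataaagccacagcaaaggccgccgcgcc
Eomes: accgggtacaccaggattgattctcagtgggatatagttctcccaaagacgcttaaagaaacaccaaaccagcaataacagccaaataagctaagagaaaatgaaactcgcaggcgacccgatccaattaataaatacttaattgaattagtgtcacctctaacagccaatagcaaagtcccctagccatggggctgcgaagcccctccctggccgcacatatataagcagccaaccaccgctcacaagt
Over windows of 300 bases, from 250 before to 50 after the start, all 9 factors have 12 in the RefSeq table. The AP-1, GATA, T-box and both composite motifs were in 0 of these 12, and in 7.81%, 11.2%, 3.98%, 0.119% and 0.125% of 32851 windows of all genes. These counts describe letters in short windows and do not bear on sites elsewhere.

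Of 16 measured target genes of T-bet and Eomes, 6 fell and 0 rose, while 0.83% of all genes were called lower and 0.313% higher. The median log2 difference of the targets was -0.28, against 0.0047 over all genes. This and the other gene lists were chosen with earlier results of these data known, so their counts describe the lists and test nothing against all genes. The protease Gzmb fell 4.02-fold, with -2.04, -2.12 and -1.89 on Batf-/- arrays 1, 2 and 3 (log2 difference -2.01 ± 0.08 SE, limma adjusted p = 4.08e-05). Its Batf+/+ arrays lay between -0.06 and 0.02, so the genotypes were far apart, while the pore-forming granule protein Prf1 was at a difference of 0.09 (adjusted p = 0.956). With quantile normalization, a setting whose limit is given in the last section, the Gzmb gene had a log2 difference of -1.39 and stayed past the threshold. The inhibitory receptor Klrg1 fell 3.90-fold (adjusted p = 0.00033), and the interleukin 18 receptor chains Il18r1 and Il18rap fell 2.47-fold (adjusted p = 0.00059) and 2.01-fold (adjusted p = 0.0103). Named after their values were seen, the death ligand Fasl fell 1.88-fold (adjusted p = 0.0228) and the chemokine Ccl5 3.37-fold (adjusted p = 0.0285).

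The calls of Fasl, Ccl5 and Il18rap depended on which arrays were used. Fasl passed when Batf-/- array 1 or 3 was left out. Its adjusted p was 0.0868 when Batf+/+ array 1 was left out, 0.0651 for Batf+/+ array 2, 0.0525 for Batf+/+ array 3 and 0.0681 for Batf-/- array 2. That of Ccl5 was 0.125 and 0.0881 when Batf+/+ array 1 or 2 was dropped, 0.0831 and 0.107 when Batf-/- array 1 or 2 was dropped, and 0.0768 with the replicate number of the arrays as a block. Dropping Batf+/+ array 2 gave Il18rap an adjusted p of 0.059 and left 3 lower targets in all. Nkg7, a granule membrane protein of cytotoxic cells named after its value was seen, lay above all Batf+/+ arrays on every Batf-/- array, at 0.56, 0.54 and 1.10, with a log2 difference of 0.70 ± 0.15 (adjusted p = 0.0887). Ifng, the type 1 cytokine itself, had one of 0.50 ± 0.26 (adjusted p = 0.774), and Batf+/+ array 3 lay lowest at -0.87.

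**Figure D3:**
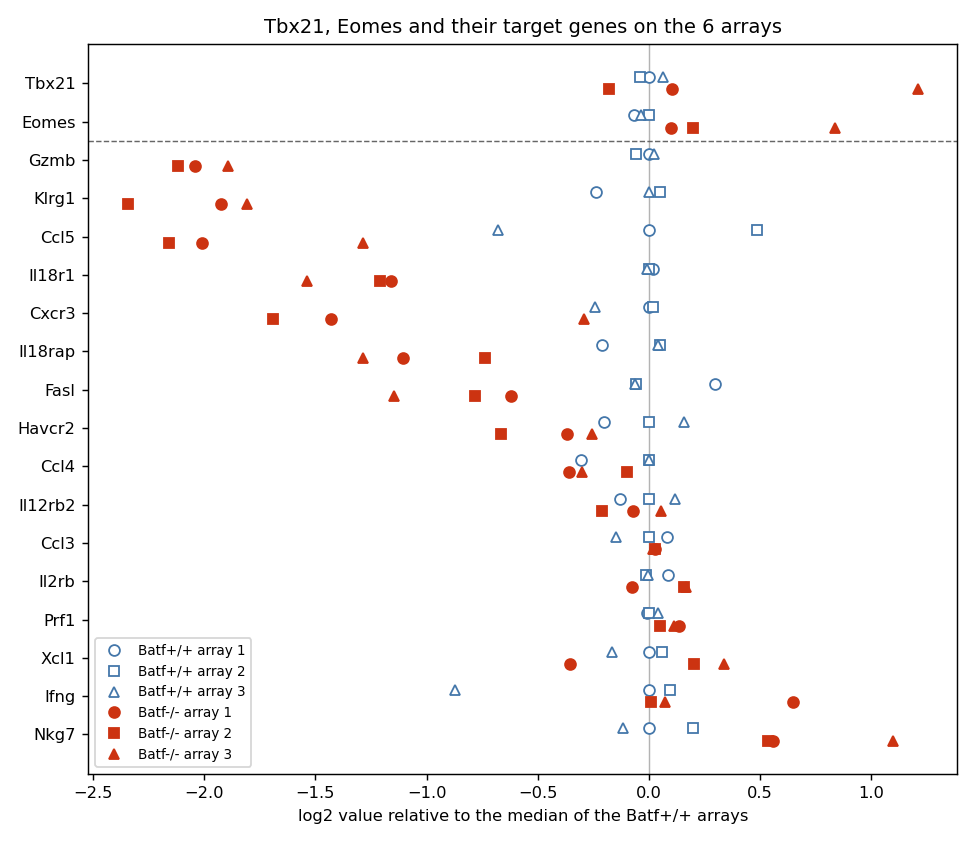
Levels of Tbx21 and Eomes (above the dashed line) and of the 16 measured target genes (below it) on the 6 arrays, in log2 units counted from the Batf+/+ median (x axis). Gzmb and Klrg1 lie near -2 on the Batf-/- arrays (filled symbols), where Tbx21 lies between -0.18 and 1.21, and Cxcr3 lies at -0.29 on Batf-/- array 3.

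Upstream of T-bet, receptors and signal carriers of interferon gamma, interleukin 12 and related cytokines gave 0 of 9 genes past the threshold by limma. The median log2 difference was -0.02. At an unadjusted p below 0.05 there were 1 lower and 1 higher, where all genes gave 4.44% lower and 3.25% higher. These, singled out for those p-values, were the interleukin 12 receptor chain Il12rb1, with a log2 difference of -0.45 ± 0.12 (adjusted p = 0.193), and the interferon regulatory factor Irf1, with one of 0.20 ± 0.08 (adjusted p = 0.571). Hlx, a homeobox factor that T-bet induces and that acts with it on Ifng, lay at -0.21, 0.03 and 0.00 in Batf+/+ and at -0.30, -0.18 and -0.02 in Batf-/- cells. The genotypes overlapped, and the log2 difference was -0.11 ± 0.10 (adjusted p = 0.984, 95% interval -0.33 to 0.12). It ranged from -0.18 to -0.041 when each array was left out.

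Gata3 was measured by 1 probe set, 1448886_at. It lay at 0.03, 0.00 and -0.41 on Batf+/+ arrays 1, 2 and 3 and at -0.24, -0.47 and -0.67 on Batf-/- arrays 1, 2 and 3. The genotypes overlapped, since Batf+/+ array 3 lay below Batf-/- array 1, but each Batf-/- array lay below the Batf+/+ array of the same number. In the fit of genes the log2 difference was -0.33 ± 0.14 (SE, limma adjusted p = 0.626, 95% interval -0.66 to -0.01), and the adjusted p was 0.102 with the replicate number as a block. In the fit of probe sets the same values gave an SE of 0.15 and a limma adjusted p of 0.834. The 95% interval there, -0.68 to 0.02, included 0. The genes nearest to it over the 6 arrays were Cc2d1a (root mean square difference 0.0708 on the log2 scale), Pbx3 (0.0733) and Smox (0.0762), of which Pbx3 passed the threshold with that block (adjusted p = 0.0419).

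Of 8 measured Gata3 target genes 0 passed by limma, with a median log2 difference of -0.32 against 0.0047 over all genes. At an unadjusted p below 0.05 there were 4 lower and 0 higher, where all genes gave 4.44% lower and 3.25% higher. These 4 genes are named because of those p-values. Il17rb, a receptor chain for interleukin 25, lay at -0.80, -0.34 and -0.63 on the Batf-/- arrays and between -0.08 and 0.03 on the Batf+/+ arrays. Its log2 difference was -0.57 ± 0.12 (adjusted p = 0.06), and it passed with the replicate block (adjusted p = 0.036), as did the chemokine receptor Ccr4 (-0.58 ± 0.18, adjusted p = 0.311 without and 0.0473 with the block). For the type 2 cytokine Il4 it was -0.39 ± 0.10 (adjusted p = 0.144), and for the chemokine receptor Ccr8 -0.46 ± 0.18 (adjusted p = 0.517). Ccr4 was at -0.37 without Batf-/- array 3, and Ccr8 at -0.25 without Batf+/+ array 2. The type 2 cytokines Il5 and Il13 had differences of 0.01 and 0.05. Among 8 measured signalling and cofactor genes upstream of Gata3 0 passed. There Il4ra, the interleukin 4 receptor chain named after its value was seen, was the 1 gene at an unadjusted p below 0.05 (0.21 ± 0.07, limma adjusted p = 0.406). All genes gave 7.69%.

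Runx1 and Runx3 lay lower in Batf-/- cells by small amounts, and their probe sets differed in size. Runx1, needed for blood formation and a partner of Foxp3, had 6 probe sets with differences between -0.40 and -0.05, each below 0. The lowest, 1422864_at, lay at 0.14, -0.18 and 0.00 in Batf+/+ and at -0.03, -0.71 and -0.52 in Batf-/- cells. Batf-/- arrays 2 and 3 lay below all Batf+/+ arrays there, while array 1 lay among them (difference -0.40 ± 0.18, limma adjusted p = 0.798). In 1452531_at the genotypes did not overlap, but the difference was -0.14 ± 0.08 (adjusted p = 0.941). The gene had levels of -0.10, -0.25 and -0.15 on the Batf-/- arrays against 0.06, -0.01 and -0.03, a difference of -0.17 ± 0.08 (adjusted p = 0.667, 95% interval -0.34 to 0.004).

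Runx3, which silences Cd4 in CD8 cells and works with T-bet, had 2 probe sets that did not give the same value. In 1440275_at the levels were 0.04, 0.00 and -0.03 in Batf+/+ and -0.18, -0.50 and -0.39 in Batf-/- cells, so the genotypes were separate. The difference of -0.36 ± 0.10 had the smallest limma adjusted p of the 16 probe sets, 0.37. In 1421467_at the levels were -0.28, 0.00 and 0.00 in Batf+/+ and -0.16, -0.13 and -0.07 in Batf-/- cells, and Batf+/+ array 1 lay lowest (difference -0.03 ± 0.10, adjusted p = 1). Averaged over both, Runx3 had a difference of -0.19 ± 0.08 (adjusted p = 0.545, 95% interval -0.37 to -0.02), the smallest adjusted p of the 8 genes. The genes nearest to Runx3 over the 6 arrays were Hipk2 (root mean square difference 0.0342 on the log2 scale), a kinase also listed among the Runx cofactors, Pnp (0.0373), an enzyme of purine salvage, and Cd81 (0.0429), a tetraspanin.

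Cbfb, the partner that all Runx proteins use, lay at 0.00, 0.08 and 0.00 in Batf+/+ and at 0.04, 0.07 and -0.06 in Batf-/- cells. The genotypes overlapped, and its difference of -0.01 ± 0.07 (limma adjusted p = 1) had a 95% interval of -0.18 to 0.16. Zbtb7b, the factor that commits cells to the CD4 lineage and represses Runx3, had differences of 0.01 (1420663_at) and -0.09 (1455071_at) in its probe sets. The gene had a difference of -0.04 ± 0.08 (adjusted p = 1, 95% interval -0.22 to 0.13), and its genotypes overlapped.

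**Figure D4:**
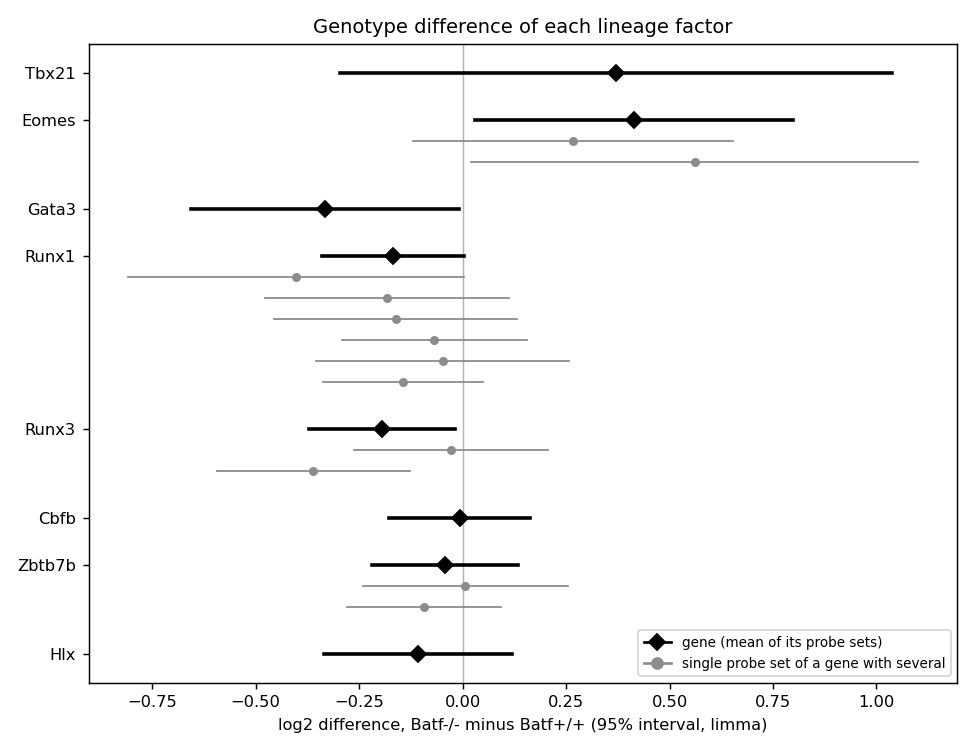
Genotype difference of each lineage factor, in log2 Batf-/- minus Batf+/+ (x axis), with 95% intervals from limma, for genes (black diamonds) and for the single probe sets of genes with several (grey circles). The interval of Tbx21 is the widest of the 8 genes, -0.30 to 1.04, and that of Cbfb spans -0.18 to 0.16.

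Stretches of the Runx promoters are shown because they share a pair of RUNX motifs, a match chosen after the search results were seen. The RUNX letters TGTGGT, read as ACCACA on the other strand, were in 4 of the 12 windows of the lineage factors and in 16.8% of all windows. These were 1 window each of Runx1, Runx2, Runx3 and Zbtb7b. In the Runx genes ACCACA occurred as a pair with 2 bases between, which was in 7 of all 32851 windows (0.0213%), 3 of them those of Runx1, Runx2 and Runx3. The 30 bases around each pair are given on the strand of the gene, with the RUNX letters in capitals (RefSeq, GRCm38.p6). They lie at chr16:92826025-92826054 on the minus strand, chr17:44814583-44814612 on the minus strand and chr4:135120503-135120532 on the plus strand. The pair begins at base 29 and base 24 after the annotated start in Runx1 and Runx2 and 134 bases before it in Runx3.
Runx1: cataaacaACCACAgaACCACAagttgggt
Runx2: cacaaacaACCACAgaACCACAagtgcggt
Runx3: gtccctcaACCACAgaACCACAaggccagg
The array values do not say which promoter a Runx1 or Runx3 transcript came from.

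Around the Runx factors, cofactors were close to 0 and 2 of the known targets fell. Of 16 measured Runx cofactors, corepressors and coactivators among them, 0 passed by limma, with a median log2 difference of -0.03. Only 1, Hipk2, had an unadjusted p below 0.05, where all genes gave 7.69%. Of 14 measured Runx target genes 2 fell and 0 rose, with a median of 0.01, while 0.83% of all genes were called lower and 0.313% higher. Itgae, the integrin chain CD103 through which T cells hold on to epithelium, fell 9.13-fold, with -3.01, -3.30 and -3.59 on the Batf-/- arrays and -0.35 to 0.02 on the Batf+/+ arrays (log2 difference -3.19 ± 0.15, adjusted p = 5.29e-05). With quantile normalization the difference of the Itgae gene was -2.16, still past the threshold. Runx3 itself was 1.28-fold and 1.02-fold lower in its 2 probe sets, neither past the threshold, and its part in the Itgae decrease was not tested. Gzmb, which is also in the T-bet list, was the other gene that fell. The coreceptor genes that Runx3 and ThPOK set against each other had differences of 0.01 (Cd4), 0.01 (Cd8a) and 0.04 (Cd8b1). Since the cells of both genotypes were sorted as CD4+, these values do not test that balance. The receptor chain Il7r, named after its value was seen, had a difference of 0.49 (adjusted p = 0.667) and was higher past the threshold without Batf-/- array 3 (0.78, adjusted p = 0.0277), where 1 Runx target was thus higher.

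Of 13 measured regulators of the choice between the CD4 and CD8 lineages 0 fell and 1 rose, with a median log2 difference of -0.01. Of all genes 0.83% were called lower and 0.313% higher. Myb, a factor of progenitors and of effector Treg cells, rose 1.91-fold, with 0.78, 1.04 and 0.80 on the Batf-/- arrays and -0.30 to 0.07 on the Batf+/+ arrays (log2 difference 0.94 ± 0.12, limma adjusted p = 0.00645). The genotypes were separate, and with quantile normalization the Myb gene had an adjusted p of 0.0574. The 20 other measured T-box, GATA and Zbtb7 family genes, most of which are known from development rather than from T cells, gave 0 genes past the threshold and 0 at an unadjusted p below 0.05 by limma, with differences between -0.17 and 0.16.

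**Figure D5:**
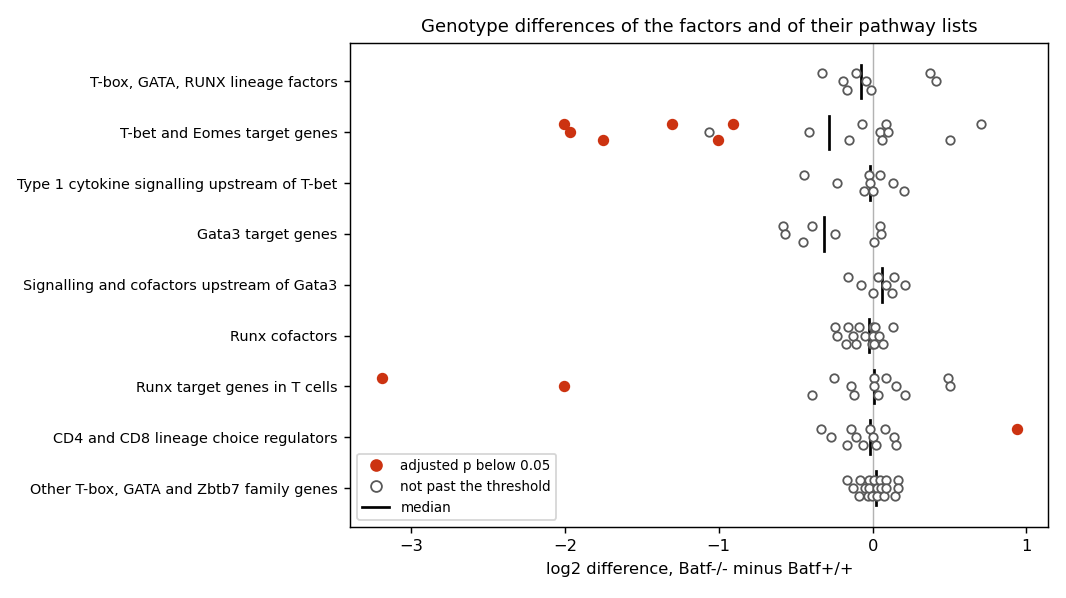
Genotype difference of every measured gene of the lineage factors and of 8 pathway lists (y axis), in log2 Batf-/- minus Batf+/+ (x axis), with filled points for genes at a limma adjusted p below 0.05, open points for the others and a bar at each median. The 8 lineage factors have 0 filled points, and the T-bet and Eomes targets have 6, all below 0. The lists were chosen with earlier results of these data known.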

How the data were processed

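The authors deposited values made with RMA, per the submitters' processing notes. Neither version nor log base is stated there. The median Batf+/+ value is 0 for all 45101 probe sets, so the values had been centred on the Batf+/+ median, a step seen in the values and in no label. The deposited values were read as log2, the base RMA gives, which is an assumption. Absolute levels are lost, so dim probe sets could not be filtered, and the array number limits the precision. After removing 64 control probe sets, limma 3.58.1 in R 4.3.3 (lmFit, eBayes, genotype as the only term) was fitted to 45037 probe sets and to 18193 genes, each the mean of its probe sets annotated to 1 gene, with Benjamini-Hochberg adjustment over each table. The method was tested on simulated data. Members and gene lists were chosen with earlier results of these data known. Named are all members, Batf, up to 4 called genes of each list by adjusted p, and the 3 genes nearest to each of the 3 members with the smallest adjusted p. Every further gene in the text was named after its values were seen. After subtracting group means, arrays of equal number correlated over probe sets at 0.427, 0.188 and 0.451, so the numbers in the titles may pair the arrays. The SEs, intervals and p-values are from the fit without pairing unless another setting is named. The fit with the number as a replicate block is given where it changes a call. Alternatives were quantile normalization, equal array medians, array weights, the replicate block, robust eBayes, other summaries of probe sets, and leaving out each array.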

Additional observations from a re-analysis of the deposited data

How the results depend on the processing

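In each of the alternatives run, 0 lineage factor genes and 0 lineage factor probe sets passed the threshold, and the smallest adjusted p of a lineage factor gene was 0.102, that of Gata3 with the replicate block. Pairing the arrays by that block also gave 2 lower Gata3 targets (Il17rb and Ccr4) and ended the call of Ccl5, and it changed no other list count by over 1.5 times. One Gata3 target was lower with equal array medians (1, Il17rb) and with array weights (1, Il4), and 0 to 1 without an array. Quantile normalization gives every array the same distribution of values. Before it, the SD over probe sets was 0.121 to 0.173 on the Batf+/+ and 0.236 to 0.262 on the Batf-/- arrays. Batf itself went from -2.89 to -2.02, so a smaller difference in this setting cannot be told from that rescaling. After quantile normalization 3 T-bet and Eomes targets were lower and 0 lineage choice regulators were higher. Runx3 probe set 1421467_at had a difference of 0.015 and Zbtb7b probe set 1420663_at one of -0.033, against -0.03 and 0.01. Without probe sets whose names end in _s_at, _x_at or _a_at 0 lineage choice regulators were higher. All 3 Myb probe sets carry such an ending, so Myb was left out there and not tested. Leaving out each array gave 3 to 7 lower T-bet and Eomes targets and 0 to 1 higher Runx targets. It took Tbx21 from -0.045 to 0.65, Hlx from -0.18 to -0.041, Cbfb from -0.033 to 0.030, the Zbtb7b gene from -0.078 to 0.0081 and its probe set 1420663_at from -0.056 to 0.11, Runx3 probe set 1421467_at from -0.12 to 0.020, and Runx1 probe sets 1440878_at from -0.11 to 0.011 and 1452530_a_at from -0.16 to 0.042. The causes were not tested. Signal over background is not known, so a low difference of a lineage factor cannot be told from a dim probe set.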
